A study of Rattus norvegicus with 12 samples.

Results

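Chemokines, interleukins and the tumour necrosis factor (TNF) superfamily are the secreted or membrane-bound messengers of inflammation, together with their receptors. Chemokines draw leukocytes and microglia along a gradient through G protein-coupled receptors, interleukins act through single-pass receptor chains that recruit JAK-STAT or MyD88 signalling, and TNF ligands bind trimeric receptors whose adaptors lead to NF-kB or to cell death. In the brain, microglia and astrocytes are their main sources, and some members also guide development: Cxcl12 and its receptor Cxcr4 position granule cell precursors in the cerebellum, and Il34 sustains microglia.

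Members were the gene probes whose name on the array began with Ccl, Ccr, Cxcl, Cxcr, Tnfsf or Tnfrsf, or was Tnf, or was that of an interleukin or an interleukin receptor. The rule found 180 probes for 160 genes, of 30367 gene probes with 25910 names on the array, and it used no measured value. Of the 180 probes, 171 were matched in the files of all 12 arrays, 2 only in the 10 files of an older release of the array's annotation, and 7 only in the 2 files of a newer one. They divided into 22 probes of CC chemokines, 14 of CXC chemokines, 11 of CC and 7 of CXC chemokine receptors, 37 of interleukins, 5 of interleukin antagonists or binding proteins, 49 of interleukin receptors, 12 of TNF ligands and 23 of TNF receptors. For 20 genes more than 1 probe was present.

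The arrays held RNA of neuron-enriched cultures made from the cerebellum of 1 day old Sprague-Dawley rats and harvested after 16 days in vitro. Control cultures (6 arrays) received dimethyl sulfoxide (DMSO) alone, and ACE cultures (6 arrays) received 1 µM acetamiprid, a neonicotinoid insecticide that acts on nicotinic acetylcholine receptors, from day 2 onwards. Both groups held 0.001% DMSO. The study made all groups of each of its 6 experiments from a single lot of cells from 1 litter. Arrays of the same replicate number were taken as a pair from 1 lot, since they lay on the same slide and deviated together. Whether ACE shifts immune messengers in such cultures is the question that the 6 pairs address.

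The labelled cell composition was checked against marker genes. Neuron markers were well above background for 8 or 9 of 9 probes per array, and all 21 microglia, 15 astrocyte and 13 oligodendrocyte lineage probes were well above background on each array, these glia being known sources of the messengers. Of 12 lymphocyte and granulocyte probes, 3 to 10 were above background per array, and the probes of Cd3e, a T cell receptor subunit, and Ms4a1, a B cell marker, were above it on none. Fewer cells of a type and less RNA per cell cannot be told apart in such bulk samples. Brightness varied between arrays (75th percentile of the signal 1803 to 4384 intensity units, 75.4% to 91.0% of gene spots well above background), and on all 6 slides control RNA lay at place 1 and ACE RNA at place 3, so that exposure and place cannot be told apart. Skeletal muscle markers differed widely between arrays (mean log2 signal of 10 probes 6.56 to 11.3 in control and 6.42 to 9.93 in ACE), and pair 2, with a difference of -4.44, and pair 6, with -2.41, were the farthest apart. The part of these differences in the results was not tested.

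The upstream sequences of 6 ligands are shown first. Cxcl1, Cxcl2, Ccl20, Cxcl11, Il1b and Cxcl13 were chosen after their values were seen, as ligands whose signal was higher in ACE in pairs 1, 2 and 5. They are the 150 bases before the RefSeq start of each gene in the rat assembly GRCr8, written 5′ to 3′ on the strand of the gene. Capitals mark matches to the consensus of NF-kB, the transcription factor through which TNF and interleukin 1 induce many inflammatory genes.
Cxcl1: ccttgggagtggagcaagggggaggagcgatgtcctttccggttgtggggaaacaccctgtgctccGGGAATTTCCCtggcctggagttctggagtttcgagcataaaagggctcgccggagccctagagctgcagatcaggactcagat
Cxcl2: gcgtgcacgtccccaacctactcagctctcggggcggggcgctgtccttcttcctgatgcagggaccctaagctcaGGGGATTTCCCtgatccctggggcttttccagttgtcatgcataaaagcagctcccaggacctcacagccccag
Ccl20: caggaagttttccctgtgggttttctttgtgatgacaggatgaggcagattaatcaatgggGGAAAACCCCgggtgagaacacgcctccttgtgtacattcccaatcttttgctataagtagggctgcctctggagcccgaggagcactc
Cxcl11: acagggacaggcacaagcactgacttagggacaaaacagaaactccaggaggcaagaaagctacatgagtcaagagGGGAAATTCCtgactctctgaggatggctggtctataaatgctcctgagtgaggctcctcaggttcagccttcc
Il1b: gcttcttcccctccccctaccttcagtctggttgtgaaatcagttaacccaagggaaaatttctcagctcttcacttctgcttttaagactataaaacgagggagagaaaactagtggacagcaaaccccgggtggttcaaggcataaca
Cxcl13: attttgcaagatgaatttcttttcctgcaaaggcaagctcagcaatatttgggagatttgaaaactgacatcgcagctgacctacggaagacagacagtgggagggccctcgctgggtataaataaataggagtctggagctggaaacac
The regions are chr14:17479322-17479471, minus strand for Cxcl1, chr14:17467256-17467405, minus strand for Cxcl2, chr9:91837009-91837158, plus strand for Ccl20, chr14:15973578-15973727, plus strand for Cxcl11, chr3:137036582-137036731, minus strand for Il1b and chr14:13917921-13918070, minus strand for Cxcl13. In Cxcl1 and Cxcl2 a pair of overlapping matches began 84 and 83 bases and 74 and 73 bases before the start, in Ccl20 a single match began 89 bases before it, and in Cxcl11 one began 74 bases before it. The windows of Il1b and Cxcl13 held 0 matches, which says only that these letters are not in this window. Both strands of the 250 bases before each start were searched for the 10-base consensus, and 1185 of 33469 promoters of the assembly (3.54%) held a match. Of the 160 member genes, 122 had a promoter entry and 15 of these (12.3%) held a match: Ccl9, Ccl20, Cxcl1, Cxcl2, Cxcl5, Cxcl10, Cxcl11, Ccr3, Il1r1, Il1rap, Il6, Il27ra, Il36a, Tnfrsf8 and Tnfsf14. Of the 12 ligands followed together further on, 10 had an entry and 4 held a match, all of them among those shown, while Ccl7, Ccl12, Ccl19 and Il1a held 0 like Il1b and Cxcl13. A match is a description of the sequence and shows no binding.

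Of the 180 member probes, 81 were well above background on all 12 arrays and 16 on none. Above background throughout were 15 of 23 probes of the TNF receptors, 22 of 36 of the chemokine ligands, 11 of 37 of the interleukins and 2 of 7 of the CXC chemokine receptors. Among the classical inflammatory interleukins, the probe of Il6 was above background on 2 control arrays and 1 ACE array and that of Il10 likewise on 2 and 1, and the probe of Tnfsf10, the death ligand TRAIL, was not well above background on any array. A probe was tested if 7 or more arrays gave it a signal over their own 20th percentile, as held for 121 member probes and 23796 probes in all. The other 59 member probes were not tested.

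No member passed the threshold for differential expression between control and ACE. In the paired limma fit across 23796 probes, with p-values adjusted after Benjamini-Hochberg, 0 of 121 member probes had an adjusted p under 0.05, as for the array as a whole (0 probes, 0%), and the lowest adjusted p of a member was 0.141. An unadjusted limma p under 0.05 was found for 19 member probes (15.7%), against 16.6% of all probes, and the exact signed-rank test gave 12 at its smallest possible p of 0.03125. These 12 probes (9.92%), 6 higher and 6 lower in ACE, had the same direction in 6 of 6 pairs, against 11.7% of all probes (4.76% higher and 6.93% lower). The members as a whole were therefore counted at about the rate of the array. Their direction differed from the array's: of the 19 probes, 11 were higher in ACE (6.9% of all probes were) and 8 were lower (9.73% of all probes), 84 of the 121 mean differences were above 0 and 37 below, and the median difference was 0.057 log2, beside -0.005 over all tested probes. A mean difference of at least 1.5-fold was reached by 5 member probes, each higher in ACE, against 1.72% of all probes (0.664% higher and 1.06% lower). The split of the called probes turned without replicate 1, to 7 higher and 9 lower (6.99% and 9.48% of all probes). It was 5 and 8 without replicate 2 (4.89% and 6.93%) and 6 and 7 without replicate 5 (5.41% and 7.45%). In the pairs of scan batch 4 it was 6 and 12 (5.73% and 8.24%). The split also depended on the scaling. Where arrays were shifted by their 75th percentile in place of quantile normalisation, 6 probes were higher and 14 lower at the unadjusted p. Of all probes, 3.39% were higher and 14.3% lower there. With this shift 63 mean differences were above 0 and 58 below, and the medians were 0.011 over members and -0.034 over all probes. By 1.5-fold, 3 members were higher and 3 lower.

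The lean was largest among the chemokine ligands. Of their 27 tested probes, 24 had a mean difference above 0, with a median of 0.18 log2, and 4 of the 5 probes past 1.5-fold were theirs. After a shift by the 75th percentile 21 probes were above 0 with a median of 0.12, and without replicate 1 22 probes with 0.057. In the pairs of scan batch 4 it was 19 probes with a median of 0.024. By contrast, the median difference was 0.016 log2 over 32 interleukin receptor probes, 0.040 over 18 TNF receptor probes, 0.043 over 7 TNF ligand probes, 0.096 over 23 interleukin probes and 0.018 over 10 chemokine receptor probes. The lean of the chemokine ligands was not shared by all culture lots. In pairs 1, 2 and 5, 24, 23 and 22 of the 27 probes were higher in ACE, with pair medians of 0.58, 0.26 and 0.21 log2. In pairs 3, 4 and 6, 14, 11 and 11 of them were higher, with medians of 0.01, -0.02 and -0.03. Over all 121 tested members the share higher in ACE was 67.8%, 66.1% and 58.7% in pairs 1, 2 and 5 and 51.2%, 44.6% and 43.8% in pairs 3, 4 and 6, whereas it ran from 46.1% to 52.4% over all probes. A difference of at least 1 log2 unit upwards, with the ACE array well above background, was seen for 11 members in pair 1 (9.09%, against 0.298% of all probes), 5 in pair 2 (4.13% against 0.454%) and 4 in pair 5 (3.31% against 1.05%), and for 2, 2 and 1 in pairs 3, 4 and 6 (1.65%, 1.65% and 0.826%, against 0.610%, 1.28% and 0.864%). As large a difference downwards, with the control array above background, was seen for 5 members in pair 5 (4.13%, against 1.76% of all probes) and for 1 or 2 in each other pair (0.826% to 1.65%, against 0.391% to 1.21% of all probes). These counts asked for signal above background on the higher array alone. Of the 11 members in pair 1, the probes of Il1rl1, Il22ra2, Il1rap, Ccl20, Cxcl2 and Cxcl3 were not above background on all 12 arrays. Of all 180 member probes 81 were above it throughout, against 20058 of 30367 gene probes. Pairs 4, 5 and 6 were scanned in a single batch, and pairs 1, 2 and 3 each in a batch of their own. The part of the scan batch in these values was not tested.

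**Figure D1:**
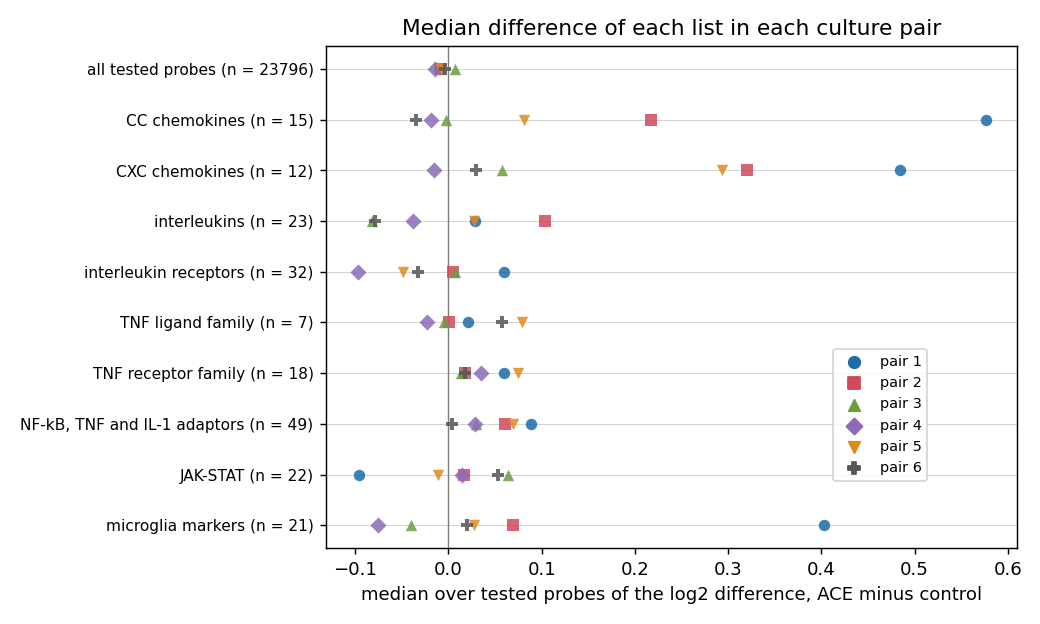
Median log2 difference, ACE minus control, over the tested probes of each list (rows, number of probes in brackets) in each of the 6 culture pairs (markers). The CC and CXC chemokines spread to 0.58 and 0.48 in pair 1, while the medians of the interleukin receptor list, the TNF receptor list and all tested probes lie within 0.10 of 0 in every pair.

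The microglia markers differed most in pair 1 as well. The mean log2 level of the 21 marker probes lay between 11.6 and 12.1 in control and between 11.7 and 12.2 in ACE. Its difference between ACE and control was 0.38 in pair 1, 0.0087 in pair 2, -0.021 in pair 3, -0.082 in pair 4, -0.0073 in pair 5 and 0.035 in pair 6. By count, 20, 17, 8, 5, 14 and 13 of the 21 probes were higher in ACE in pairs 1 to 6. The medians were 0.40, 0.07, -0.04, -0.08, 0.03 and 0.02 log2, so that pair 1 stood apart and pairs 5 and 6 were nearly alike. The part of the microglia markers in the ligand values was not tested.

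Among the ligands that attract neutrophils, Cxcl1 (chromosome 14, 18690468 to 18690527 of the rn4 assembly, minus strand, the position of its probe) is an agonist of Cxcr2. Its log2 signal was 7.64, 7.73, 7.64, 8.14, 7.27 and 7.59 in the control arrays of pairs 1 to 6 and 8.93, 8.64, 7.90, 7.49, 10.36 and 7.50 in the ACE arrays. The control cultures thus lay close together, while the ACE cultures of pairs 1, 2 and 5 stood above all of them. The difference was 0.80 ± 0.47 log2 (SE, 6 pairs), with a limma p of 0.137 before and 0.433 after adjustment, and it was 0.34 without replicate 5. The neighbouring gene Cxcl2, a chemokine of the same action, was dimmer, with 3 control and 4 ACE arrays above background. Its pair differences were 2.11, 1.75, -0.33, -0.50, 0.93 and -0.42, above 0 in pairs 1, 2 and 5 and below 0 in the others, whereas Cxcl1 was also above 0 in pair 3 (mean 0.59 ± 0.42, adjusted limma p 0.503). The mean of this dim probe was 0.14 with the normexp background correction, which estimates the background of each spot in another way, 0.29 without replicate 1 and 0.36 without replicate 2. For Cxcl3, of the same cluster on chromosome 14, the differences were 1.06, 0.26, -0.76, -0.21, 1.64 and -0.87 by its tested probe, with a mean of 0.19 that was -0.10 without replicate 5. Cxcl5, the other attractant of neutrophils on the array, had an untested probe above background on 3 control arrays and 1 ACE array, whose differences were 0.26, -0.15, -1.37, 1.36, -3.41 and 1.28 (mean -0.34), so that pair 5 was below 0 there.

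Ccl20, the ligand of Ccr6 and an attractant of lymphocytes and dendritic cells, gave large differences on dim probes. With normexp its 2 probes had means of 0.47 and 0.40, under the 0.69 of Cxcl1. One of its probes (chromosome 9, 82443347 to 82443406, plus strand) read 1.94, 2.60, 4.32, 2.64, 1.69 and 3.03 in control and 5.21, 4.23, 4.12, 1.59, 7.05 and 5.20 in ACE, with 1 control and 5 ACE arrays well above background. It did not pass the signal filter and has no test. The other probe, which lies 82443354 to 82443413 and so overlaps the first, was tested, and its pair differences of 2.74, 1.22, 0.09, -1.53, 4.40 and -1.68 gave a mean of 0.87 ± 0.86 (adjusted limma p 0.631), which was 0.17 without replicate 5, 0.50 without replicate 1, 1.35 without replicate 4 and 1.38 without replicate 6. Both probes put pairs 1, 2 and 5 above 0. They disagreed in pair 6, where they gave 2.17 and -1.68.

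**Figure D2:**
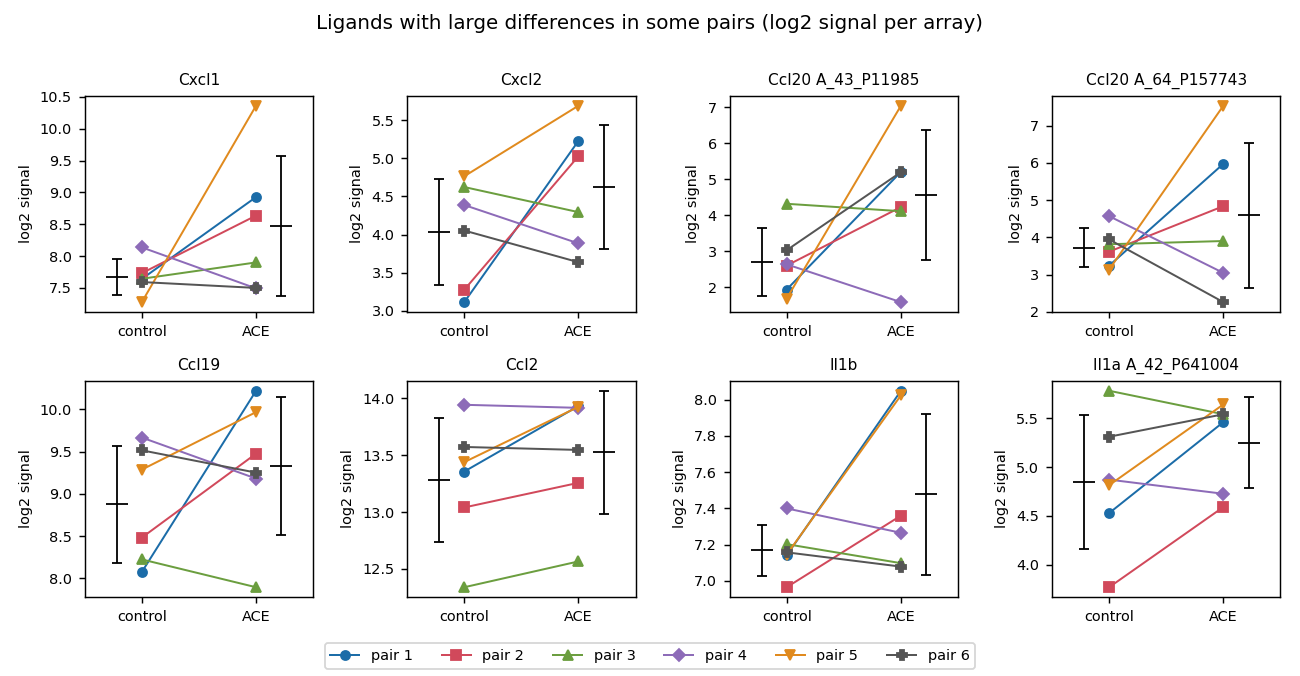
Log2 signal on each array for 7 inflammatory ligands, Ccl20 and its overlapping probes taking a panel each, with control and ACE arrays of a culture pair joined by a line and the mean ± SD of 6 arrays drawn beside each group. The lines of pairs 1, 2 and 5 climb in every panel, and those of the other pairs are mostly flat or descend.

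Il1b and Il1a encode the founding inflammatory interleukins, which signal through Il1r1 and MyD88. The Il1b signal lay between 6.96 and 7.40 in control (median 7.15) and between 7.08 and 8.05 in ACE (median 7.31), the groups overlapping. Its pair differences were 0.91, 0.40, -0.10, -0.13, 0.88 and -0.08 (mean 0.31 ± 0.18, adjusted limma p 0.419), so that pairs 1, 2 and 5 were again the ones above 0. The mean was 0.19 without replicate 1 and 0.20 without replicate 5. One Il1a probe gave 0.93, 0.82, -0.24, -0.15, 0.83 and 0.23 (mean 0.41 ± 0.19, adjusted limma p 0.344), with a mean of 0.12 by normexp. The second Il1a probe, above background on 4 control and 3 ACE arrays, went against it in pair 5 with a difference of -1.80 and in pair 4 with 1.07. Their antagonist Il1rn differed by 0.11 ± 0.06 log2 and their receptor Il1r1 by 0.05 ± 0.09.

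Of the monocyte-attracting CC chemokines, Ccl12 was the one that was higher in ACE in all 6 pairs. Its signal lay between 8.02 and 8.65 in control (median 8.28) and between 8.07 and 9.26 in ACE (median 8.75). The differences of 1.01, 0.51, 0.05, 0.21, 0.61 and 0.14 were again largest in pairs 1, 5 and 2, and their mean of 0.42 ± 0.13 had a limma p of 0.0164 before and 0.214 after adjustment. Ccl2, the main ligand of Ccr2, had a signal of 12.34 to 13.94 in control (median 13.40) and 12.57 to 13.93 in ACE (median 13.73). The difference was 0.24 ± 0.09 (unadjusted limma p 0.0368, adjusted p 0.271), and it was above 0 in 4 of 6 pairs. The neighbouring Ccl7 differed by 0.55 in pair 1, 0.11 in pair 2 and 0.30 in pair 5, and by 0.07, -0.13 and -0.07 in the remaining ones. The 3 genes lie within 70257919 and 70322506 on chromosome 10 by their probes. The probe of their receptor Ccr2 was above background on 1 array of each group.

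The inflammatory chemokines Ccl3, Ccl4 and Ccl5, which attract monocytes and T cells, had smaller mean differences than Ccl12, Ccl2 and Ccl7. Ccl3 differed by 0.10 ± 0.08 log2, Ccl4 by 0.06 ± 0.06 and Ccl5 by 0.09 ± 0.19, with adjusted limma p-values of 0.523, 0.622 and 0.833. Without replicate 1 the mean was 0.047 for Ccl3 and 0.008 for Ccl4. For Ccl5 pair 1 stood alone with a difference of 1.09, and the other 5 ranged from -0.35 to 0.23, so that the mean was -0.11 without replicate 1.

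Cxcl13, a B cell attractant, had a log2 signal of 2.62 to 5.79 in control (median 5.09) and of 4.21 to 6.31 in ACE (median 5.65). The low control value belonged to pair 1, and the groups overlapped. Its pair differences of 1.59, 1.53, -0.31, 0.41, 0.62 and 0.13 gave a mean of 0.66 ± 0.27 (unadjusted limma p 0.0497, adjusted p 0.300). Ccl19, a ligand of Ccr7 on dendritic and T cells, gave 2.14, 0.99, -0.33, -0.48, 0.68 and -0.26, above 0 in pairs 1, 2 and 5, with a mean of 0.46 (adjusted limma p 0.553) that was 0.12 without replicate 1. Of the interferon-induced ligands of Cxcr3, Cxcl11 gave 0.97, 0.85, 0.01, -0.90, 0.63 and 0.30, while Cxcl10 was -0.19 in pair 1 and between 0.06 and 0.36 in the other pairs (mean 0.16 ± 0.07, adjusted limma p 0.346). The third, Cxcl9, was above background on 4 control and 5 ACE arrays and gave 0.63, 0.85, -0.18, -0.17, 0.12 and 0.12 (mean 0.23 ± 0.15, adjusted limma p 0.484), with a mean of 0.04 by normexp.

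Cxcl17, a mucosal chemokine, was higher in ACE in 6 of 6 pairs by 0.43 ± 0.16 log2 (control 5.01 to 6.14 with median 5.32, ACE 5.18 to 6.38 with median 5.97). Pair 6 gave the largest difference, 1.34, and the others 0.10 to 0.31, so its order of lots was unlike that of Cxcl1, and without replicate 6 the mean was 0.25. By limma p was 0.0367 before and 0.270 after adjustment. Cxcl16, a membrane-bound scavenger chemokine, was 0.18 ± 0.06 higher (adjusted limma p 0.239), above 0 in 4 of 6 pairs. Of the homeostatic chemokines, Cxcl14 differed by 0.04 ± 0.04 log2. The 2 probes of Cxcl12 differed by -0.15 ± 0.20, the lowest mean of a tested chemokine ligand, and -0.03 ± 0.13, with pairs on both sides of 0 and -1.11 in pair 5 for the first, whose mean was 0.04 without replicate 5.

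**Figure D3:**
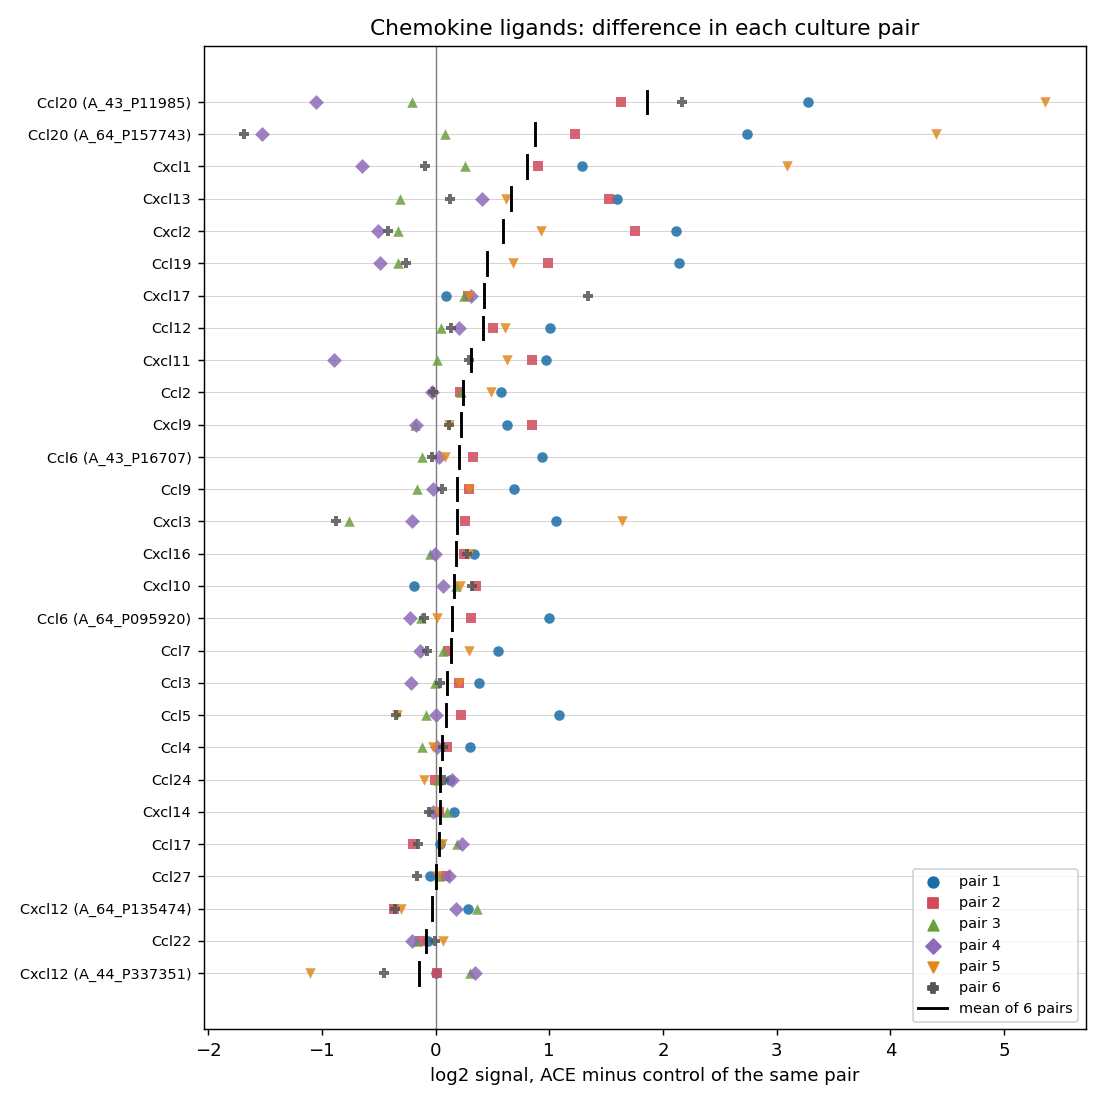
Log2 difference, ACE minus control, in each culture pair (markers) and the mean of the 6 pairs (vertical bars) for the 27 tested chemokine ligand probes and the untested Ccl20 probe, ordered by mean. Pairs 1, 2 and 5 lie to the right at the top of the plot, and in the lower part most markers lie close to 0.

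As a description made after these values were seen, 12 ligand genes with 14 probes (Cxcl1, Cxcl2, Cxcl3, Cxcl11, Cxcl13, Ccl2, Ccl7, Ccl12, Ccl19, Ccl20, Il1a and Il1b) were followed together. All 14 probes were higher in ACE in pairs 1 and 2 and 13 were in pair 5, while 6, 3 and 6 were in pairs 3, 4 and 6. Their median differences were 1.04, 0.88 and 0.75 log2 in pairs 1, 2 and 5 and -0.10, -0.18 and -0.05 in the other pairs. With normexp the medians were smaller, at 0.58, 0.31 and 0.44 in pairs 1, 2 and 5 and -0.0046, -0.09 and -0.04 in the others. The list was picked for this pattern and supports nothing by itself.

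The chemokine receptors included the member with the lowest p. Ccr1l1, a receptor-like gene beside Ccr1 on chromosome 8 (128728405 to 128728464, minus strand), had a log2 signal of 5.61 to 7.33 in control (median 5.87) and of 5.41 to 6.96 in ACE (median 5.55). It was lower in ACE in all 6 pairs, by 0.18 to 0.51, although the groups overlapped because the lots differed by more than that. The mean difference was -0.33 ± 0.05 log2, with a limma p of 0.000363 before and 0.141 after adjustment, and it was -0.16 by normexp (adjusted p 0.112). Cxcr4, the Cxcl12 receptor of granule cell precursors, lay between 10.89 and 11.70 in control (median 11.09) and between 10.83 and 11.56 in ACE (median 10.92), and was lower in 5 of 6 pairs by a mean of 0.13 on the log2 scale (-0.13 ± 0.03, adjusted limma p 0.180). Cxcr7, a decoy receptor for the same ligand, differed by 0.05 ± 0.08 and Ccr1 itself by 0.08 ± 0.10.

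The receptors of TNF had mean differences of opposite sign. Tnfrsf1a, the widely expressed receptor that carries a death domain, was lower in ACE in 6 of 6 pairs, with a signal of 12.50 to 13.36 in control (median 12.70) and 12.28 to 13.29 in ACE (median 12.62). Its mean difference was -0.10 ± 0.03 log2 (unadjusted limma p 0.0256, adjusted p 0.242). Tnfrsf1b, the second receptor, found mainly on immune cells and microglia, was higher in 6 of 6 pairs by one probe, with a signal of 9.51 to 10.71 in control (median 10.10) and 9.99 to 10.76 in ACE (median 10.33). The difference was 0.23 ± 0.06 (unadjusted limma p 0.00836, adjusted p 0.185), and it was largest in pair 1, at 0.48. Its second probe gave 0.09 ± 0.07, above 0 in 4 of 6 pairs. Tnf itself, between 9.48 and 10.32 in control (median 10.05) and 9.80 and 10.40 in ACE (median 10.22), was 0.14 ± 0.05 higher, above 0 in 5 of 6 pairs, with an adjusted limma p of 0.258.

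Among the remaining TNF family genes, Tnfrsf9, a costimulatory receptor of T cells, was 0.23 ± 0.09 higher in ACE (adjusted limma p 0.262), above 0 in 5 of 6 pairs. Tnfrsf21, the death receptor DR6, was higher in all 6 pairs by one probe, by no more than 0.09 in any of them. Tnfsf12, the ligand TWEAK, differed by 0.03 ± 0.03, its receptor Tnfrsf12a by -0.05 ± 0.05, the decoy receptor Tnfrsf11b by 0.0018 ± 0.06, Tnfrsf19 by 0.01 ± 0.07 and Tnfsf13 by 0.01 ± 0.04. None of these 5 had an unadjusted limma p under 0.05, the lowest being 0.390.

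Il17b, a cytokine of the interleukin 17 family, was lower in ACE in 6 of 6 pairs, with a signal of 6.45 to 7.51 in control (median 6.56) and 6.24 to 7.32 in ACE (median 6.36) and a mean difference of -0.17 ± 0.04 (unadjusted limma p 0.0046, adjusted p 0.163). Il17ra, the receptor chain shared by the family, was higher in 6 of 6 pairs, between 12.99 and 13.43 in control (median 13.18) and 13.06 and 13.51 in ACE (median 13.29), by 0.10 ± 0.03 (unadjusted limma p 0.00888, adjusted p 0.187). Il17rd, known as a repressor of FGF signalling, was lower in 6 of 6 pairs, but the differences ranged from -0.01 to -1.50 and only pairs 4 and 5 exceeded 1 log2 unit (mean -0.53 ± 0.23, adjusted limma p 0.308, and -0.34 without replicate 4). Il36rn, the antagonist of the interleukin 36 receptor, was lower in 6 of 6 pairs too by its tested probe. The signal was 6.72 to 7.76 in control (median 6.99) and 6.29 to 7.63 in ACE (median 6.88). Its mean difference was -0.21 ± 0.05, with an adjusted limma p of 0.177. The other Il36rn probe, untested and above background on 2 arrays, had a mean difference of 0.33.

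**Figure D4:**
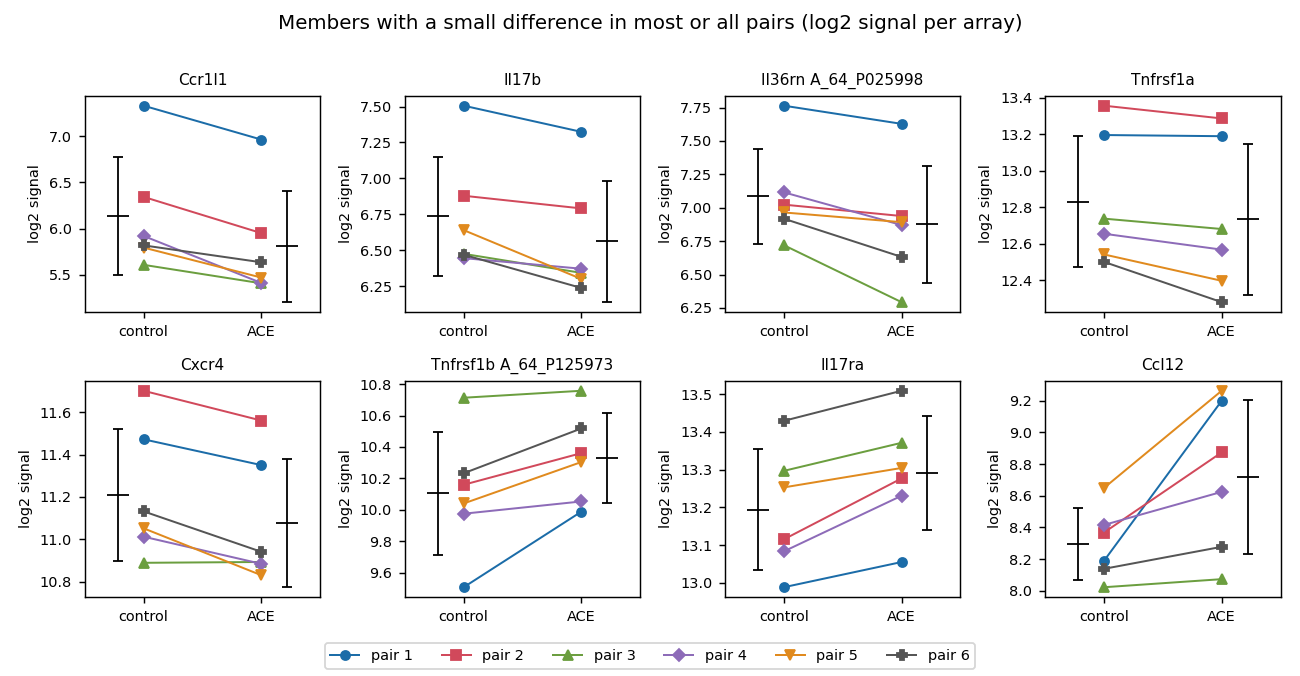
Log2 signal on each array for 8 members with a difference of one direction in 5 or 6 of 6 pairs, control and ACE arrays of a pair joined by a line, with the mean ± SD of 6 arrays beside each group. The lines run almost in parallel for Ccr1l1 and Il17b, and the vertical distance between pairs exceeds the step from control to ACE in most panels.

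The other interleukin receptors differed less or rested on dim probes. Il7r, a receptor of lymphocytes, was 0.29 ± 0.10 higher by one probe (adjusted limma p 0.251) and 0.02 ± 0.16 by its second. Il11ra1 was 0.12 lower on the log2 scale (-0.12 ± 0.05, adjusted limma p 0.299), and Il6st, the signalling chain that it shares with Il6r, differed by -0.04 ± 0.03. Il20rb was above background on 3 arrays of each group and lower in ACE in 5 of 6 pairs, by a mean of -0.55 ± 0.17 (adjusted limma p 0.216). Il22ra2, a soluble antagonist of interleukin 22, had a mean difference of 0.74 ± 0.59 that rested on pair 1, whose difference was 3.68 (0.16 without replicate 1), and it was above background on 2 control and 3 ACE arrays. The probes of Il20ra, Il18rap and Il27ra were untested and dim, each above background on 3 control arrays and on 1, 2 and 2 ACE arrays, and their mean differences were -1.51, -1.22 and -0.46, with single pairs as low as -3.35, -4.57 and -2.36. Without replicate 3 the mean was -0.56 for Il18rap, and without replicate 5 or 6 it was -0.08 or -0.23 for Il27ra.

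Of the other interleukins measured on all arrays, Il34, the neuronal ligand of Csf1r, differed by -0.02 ± 0.08 log2, Il18 by 0.12 ± 0.08 and Il16 by 0.12 ± 0.10. The Il18 binding protein Il18bp differed by 0.05 ± 0.07. Il33, a nuclear alarmin of astrocytes and oligodendrocytes, was lower in 6 of 6 pairs by 0.01 to 0.25 (mean -0.09 ± 0.04, adjusted limma p 0.316). Astrocyte markers, as a mean of 15 probes, were lower in 5 of 6 pairs, by 0.013 to 0.11. By contrast, the mean of 13 oligodendrocyte lineage probes differed by 0.011 to 0.091 in pairs 2 to 6 and by -0.037 in pair 1. How far either list bears on the Il33 values was not tested.

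Levels spread more between culture lots than within pairs. For the 81 members well above background on all arrays, the SD of the 6 pair means had a median of 0.367 log2, against 0.140 for the spread within pairs (the SD of the 6 differences divided by the square root of 2). The former was the larger for 75 members (92.6%), as for 95.7% of 20058 probes of the whole array, whose medians were 0.253 and 0.0762. Each lot was on a slide of its own, and for pairs 1 to 3 also in a scan batch of its own, so that lot, slide and, in those pairs, scan batch cannot be told apart. The medians between lots of the 9 families ran from 0.294 for TNF ligands to 0.564 for interleukin antagonists and binding proteins. Cxcl1, with 0.458 between lots and 0.931 within pairs, and Ccl19, with 0.557 and 0.719, were among the 6 exceptions.

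Il36b, an epidermal interleukin 1 relative, had an SD of 1.25 between lots, the highest of the 81. This order depended on the scaling: after a shift by the 75th percentile the SD was 0.77 for Il36b, 0.81 for Il23r, 0.80 for Ccr1l1 and 0.59 for Cxcl13, the last falling from 0.92. The pair means of Il36b were 2.68, 5.52, 6.14, 5.02, 5.51 and 5.82, so that pair 1 stood apart, and without pair 1 the SD was 0.42. Pair 1 was also the lowest for Cxcl13 (3.41, others 4.97 to 6.00), Ccr1 (6.37, others 8.03 to 8.93), Il7r (4.49, others 5.51 to 6.90), Tnfrsf19 (5.67, others 6.43 to 7.40) and Il1rn (9.40, others 9.65 to 10.98). It was the highest for Ccr1l1 (7.15, others 5.51 to 6.15) and Il2rg (12.97, others 11.08 to 12.09), the common gamma chain. Without pair 1 the SD between lots fell to 0.47 for Cxcl13, 0.34 for Ccr1, 0.54 for Il7r, 0.38 for Tnfrsf19, 0.24 for Ccr1l1 and 0.39 for Il2rg. In contrast, Il23r was lowest in pairs 5 and 6 (5.19 and 5.02, others 6.24 to 6.74), and Tnfsf13, the B cell factor APRIL, was highest in pair 3 (11.60, others 9.98 to 10.85). Over the 81 members, pair 1 was the lot farthest from the median for 32 (39.5%), close to the 37.7% of all probes. Both arrays of pair 1 were read out with another software version than the other 10 arrays, and culture lot and software version cannot be told apart there.

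**Figure D5:**
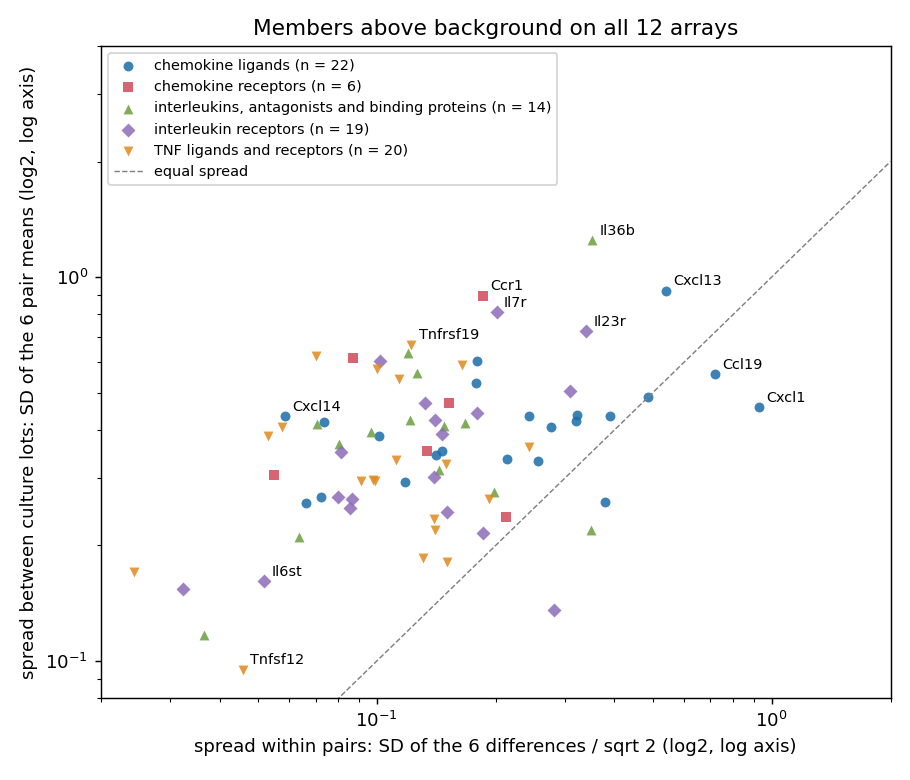
Spread between culture lots (SD of the 6 pair means, log2, vertical) against spread within pairs (SD of the 6 differences divided by the square root of 2, log2, horizontal) for the 81 members above background on all 12 arrays, on log axes, with the dashed line at equality. Most points lie above the line, Il36b highest at 1.25, and Cxcl1 and Ccl19 lie to the right of it.

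The genes that transmit these signals were read from a list of 119 probes for 99 genes outside the name rule. Of 107 tested probes, 18 (16.8%) had an unadjusted limma p under 0.05, 11 higher and 7 lower in ACE, close to the 16.6% of all probes, and 0 had an adjusted p under 0.05. With the shift by the 75th percentile 9 were higher and 10 lower. The adaptors and kinases of NF-kB, TNF and interleukin 1 signalling gave 9 probes higher and 1 lower of 49 (20.4%), where 6.9% of all probes were higher and 9.73% lower. With the shift by the 75th percentile 7 were higher and 1 lower, beside 3.39% and 14.3% of all probes, and with no replicate block there were 0. Examples were Ripk3, the necroptosis kinase (0.19 ± 0.05 log2, 6 of 6 pairs), Myd88, the interleukin 1 receptor adaptor (0.12 ± 0.03, 6 of 6), Tab2 (0.12 ± 0.03, 6 of 6) and Tbk1 (0.26 ± 0.08, 6 of 6), with adjusted limma p-values between 0.175 and 0.211. The Irak3 probes agreed in direction, at 0.10 ± 0.03 and 0.11 ± 0.08, whereas those of Tradd disagreed, at 0.10 ± 0.04 and -0.09 ± 0.04.

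JAK-STAT genes gave 0 probes higher and 3 lower of 22 (13.6%, near the array's 16.6%). They were both probes of Cish (-0.23 ± 0.05 and -0.15 ± 0.04) and that of Socs3 (-0.16 ± 0.04), inhibitors that cytokine receptors induce through STAT factors, each lower in 6 of 6 pairs with adjusted limma p-values of 0.154, 0.182 and 0.166. Among related ligands and receptors outside the name rule, 2 of 36 probes were higher and 3 lower (13.9%). Csf3, the granulocyte growth factor, was higher in 6 of 6 pairs by 0.20 to 0.38 (mean 0.26 ± 0.03, unadjusted limma p 0.00012, adjusted p 0.141). Cx3cr1, the fractalkine receptor of microglia, was lower in 6 of 6 pairs, by 0.17 to 0.75 (mean -0.35 ± 0.08, adjusted limma p 0.147), while the mean of the microglia markers, of which it is one, was higher in ACE in 3 of the 6. Ccrl1, a scavenger of Ccl19 and related chemokines, was lower by 0.35 (-0.35 ± 0.10, adjusted limma p 0.193) and Lta by 0.30 (-0.30 ± 0.10, adjusted limma p 0.216), each in 6 of 6 pairs. The probes of Csf1r disagreed, with 0.28 ± 0.06 for one and -0.02 ± 0.11 for the other.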

How the data were processed

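Per the file headers, the authors scanned 1-colour Agilent arrays and extracted each spot's intensity with Feature Extraction 11.0.1.1 (2 arrays) or 11.5.1.1 (10 arrays), background subtracted and not scaled between arrays. The authors also deposited log2 values, quantile normalised and centred per probe, which correlated at 0.997 to 0.999 with those computed here and were used as an alternative. Outlier spots were left out, and processed intensities were quantile normalised on the log2 scale over the 12 arrays. Probes above the 20th percentile on at least 7 arrays and with at least 4 pairs were tested with limma 3.58.1 in R 4.3.3 (two-sided, culture lot as a block, Benjamini-Hochberg over all 23796 probes, tested on simulated data) and by exact signed-rank tests. The methods describe 6 culture lots but do not tie them to replicate numbers, and that a number marks a lot was taken from the shared slides and the next check. Deviations from group means correlated at 0.449 to 0.912 within pairs and -0.439 to 0.390 otherwise. Probe positions are on rn4, promoters from RefSeq (GRCr8).

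Members and lists were chosen with earlier results of these data known. Genes named were members with an unadjusted p under 0.05 and signal above background on all arrays of the higher group (up to 10 per direction), the 5 largest mean differences per direction, the 10 largest spreads between lots, and a fixed set of well-known members, of which 1 is not reported here. Up to 5 transmitting genes per direction were named by the first clause. The genes Cxcl3, Cxcl11, Ccl7 and Ccl19 were added after their values were seen. Alternatives covered scaling, background correction, filters, the block, scan batch and each replicate left out. No authors' comparison was used. Plots used matplotlib 3.10.9 (Python 3.11.15).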

Additional observations from a re-analysis of the deposited data

Results flagged for a closer look

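Over 69 named member probes, the 102 groups of 6 arrays that were all above background were searched for an array far from the others. An array of this kind was found in 5 groups. Chance alone flags about 1 in 20 groups. All 5 arrays belonged to replicate 1. The control array was low for Cxcl16 (12.2 log2, the next being 12.8), Ccr1 (6.22 against 8.06), Il18bp (9.92, more than 1 log2 unit under the next) and Il36b (2.66 against 5.11), and the ACE array was high for Ccr1l1 (6.96 against 5.95).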

How the results depend on the processing

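No member passed the adjusted limma threshold under any alternative (0 of the tested members in each). The count at an unadjusted limma p under 0.05, 19 with the replicate block, was 0 with no replicate block (0.185% of all probes higher and 0.155% lower). It was 27 with the lot as a random effect (7.8% and 9.04%) and 12 by the exact signed-rank test. With a replicate left out it ran from 13 without replicate 2 (4.89% and 6.93%) or 5 (5.41% and 7.45%) to 24 without replicate 3 (6.69% and 10.8%). For the transmitting genes it was 18 with the block, 0 with no replicate block and 16 to 25 with a replicate left out. Members with a mean difference of at least 1.5-fold numbered 5, and 1 after normexp correction, 14 with no filter, 2 among probes above background throughout a group, 10 in the pairs of scan batch 4 and 2 (without replicate 1) to 9 (without replicate 3 or 6). Members with 1 direction in all pairs numbered 12, 42 in the 3 pairs of scan batch 4 and 13 to 25 with a replicate left out. This count cannot fall when fewer pairs are compared. For the counts at 1.5-fold and of 1 direction, the share of all probes was not computed under the alternatives. The median difference of 0.057 ran from 0.011 (scan batch 4, and a shift by the 75th percentile) to 0.072 (deposited values), and from 0.040 to 0.068 with a replicate left out. Among the tested members chosen by p or size, Il22ra2 reversed in scan batch 4, to -0.26, and no other did under any alternative. Over all 121 tested members, however, leaving out 1 pair turned the sign of 39 means, 10 of them among the 68 of at least 0.1 in size and 3 (Il15ra, Il1rap and one Il23r probe) among the 27 of at least 0.25. The causes were not tested. Of 27 tested member probes with a difference of at least 0.25, normexp moved 23 by over 1.5 times, among them 5 of the 9 measured on all arrays, and reversed 0. Examples were Cxcl2 to 0.14, Cxcl11 from 0.31 to 0.20, Cxcl13 to 0.24, the Il1a probes to 0.12 and 0.15, Cxcl17 to 0.22, Il1rap to 0.19, Il7r to 0.11, Ccr1l1 to -0.16, Il20rb to -0.13, Il17rd to -0.23, Il22ra2 to 0.27, the Ccl20 probes to 0.47 and 0.40 and the untested Il20ra, Il18rap and Il27ra to -0.31, -0.27 and -0.15. Signal over background limits the dim probes: 81 members were measured on all arrays and 106 on at least 7.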
